A study of Macaca mulatta with 2 samples.

Results

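The lymphocytes of macaque trabecular meshwork were 389 of 14063 kept cell barcodes, 301 of 8633 in a library labelled glaucoma and 88 of 5430 in a library labelled normal. Kept barcodes had 500 or more genes and less than 20% mitochondrial unique molecular identifiers (UMIs, each the count of 1 captured RNA molecule). A lymphocyte had a UMI of at least 2 of the 7 markers CD3D, CD3E, CD3G, CD2, NKG7, KLRD1 and GZMB. It also had fewer than 2 of the macrophage markers CD14, C1QB, C1QC, CD163 and CSF1R, and no UMI of CDH19 or PECAM1, genes of Schwann cells and endothelium. The study set rhesus macaques with spontaneous primary open-angle glaucoma beside healthy animals and asked how cell types, their proportions and their genes differ in the sieve tissue that drains the eye. Each diagnosis had 1 droplet 3-prime library of collagenase-digested trabecular meshwork, and the labels give neither the number of animals behind a library nor their age. No treatment, allele or sort is named in the labels for either library. With 1 library per diagnosis there is no replicate, no test and no p-value. Effects of the disease cannot be told apart from those of the animals, their dissection and the preparation of each library.

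T cells carry an antigen receptor that signals through the CD3 chains. CD8 T cells and natural killer (NK) cells kill target cells with granules of granzymes, granulysin and perforin, while CD4 T cells direct other immune cells through cytokines and CD40 ligand. T cells that settle in a tissue often keep CD69 on their surface, which holds them out of the circulation, and IL7R, the receptor for interleukin-7, is a mark of long-lived T cells. Macrophages are well-known residents of the trabecular meshwork, and lymphocytes enter it from the blood.

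Outside the genes that chose them, the lymphocytes held RNA of granule proteins and of CD69 in both libraries. GNLY and GZMK were each detected in more than 51% of the cells of both libraries, and CD69 in more than 75%. The glaucoma library had the larger lymphocyte share. Per UMI, its lymphocytes had a higher level of GZMA and lower levels of IFNG, IL7R, IL2RB and RASGRP1, while GNLY differed by -0.05 and GZMK by 0.37 on the log2 scale.

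Lymphocytes were 3.49% [3.11, 3.90] of kept glaucoma barcodes and 1.62% [1.30, 1.99] of kept normal ones, a log2 ratio of 1.11 [0.76, 1.47]. Brackets hold exact 95% intervals, which cover counting error only and leave out any spread among animals. For the levels and ratios of summed UMIs given below, they also leave out the spread among cells. A macrophage gate (at least 2 of the 5 macrophage markers and fewer than 2 lymphocyte markers) held 478 and 127 barcodes, 5.54% and 2.34%, and a log2 ratio of 1.24 [0.96, 1.54]. A stromal gate (at least 2 of DCN, LUM, COL1A1, COL1A2 and PDGFRA with no immune, endothelial or Schwann marker) held 38.4% and 41.7%. The lymphocyte and macrophage shares were therefore both higher in the glaucoma library, by amounts whose intervals overlap. The lymphocyte ratio depended on the minimum of genes per barcode. With at least 800 genes, 46 and 23 lymphocytes were left and the log2 ratio was 0.36.

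Lymphocytes were shallow cells. Their median was 1355 UMIs (range 847 to 9992) and 617 genes in glaucoma, and 1728 UMIs (867 to 6448) and 709.5 genes in normal cells, against medians of 4181.5 and 3713 UMIs in the stromal gate. In all they held 504038 and 173388 UMIs, of libraries with 38765808 and 25042621 UMIs over 10624 and 7028 deposited barcodes. The mitochondrial share of their UMIs was 2.83% and 1.60%. The 2 libraries shared 17 barcode sequences and no lymphocyte barcode. Because depth differs between the libraries, shares of cells with a UMI are also given below after each lymphocyte was thinned to 800 UMIs at random, which left out none of them.

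The 7 markers chose these cells, so their levels are described and not read as a result. CD3D, a chain of the CD3 complex, had a UMI in 92.7% of glaucoma and 92.0% of normal lymphocytes, and CD2, an adhesion receptor of T and NK cells, in 72.4% and 85.2%. GZMB, granzyme B, had one in 59.5% and 53.4%, NKG7, a granule membrane protein, in 32.9% and 19.3%, and CD3E in 26.6% and 34.1%. CD3G was detected in 26.6% and 9.09% of lymphocytes, and KLRD1, the NK receptor chain CD94, in 4.98% and 2.27%. Of the glaucoma cells 85 had exactly 2 markers, 115 had 3, 74 had 4, 23 had 5 and 4 had 6. Of the normal cells 30 had 2, 34 had 3, 22 had 4 and 2 had 5. Each marker can be read apart from its own vote in the cells that pass on the other 6. There CD3D was detected in 90.3% and 89.1%, GZMB in 55.96% and 48.1%, NKG7 in 30.3% and 18.4%, and CD3G in 24.8% [20.0, 30.2] and 8.05% [3.30, 15.9].

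Just outside the threshold lay 60 glaucoma and 23 normal barcodes that met every other condition with 1 marker. PTPRC, the pan-leukocyte antigen CD45, was detected in 35.0% and 47.8% of these, and CD69 in 30.0% and 30.4%. Just inside it, the cells with exactly 2 markers had PTPRC in 76.5% and 76.7% and CD69 in 68.2% and 76.7%. MYOC, the myocilin gene of the meshwork, was detected in 53.3% and 39.1% of the cells outside and in 44.7% and 33.3% of those inside. A further 24 and 13 barcodes with at least 2 lymphocyte markers were left out for a UMI of CDH19 or PECAM1 alone, and 7 and 0 for macrophage markers.

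Most of the chosen cells carried RNA of a CD3 chain, which the rule favours: 3 of its 7 markers are CD3 chains, and KLRD1 is its 1 NK receptor. The shares below describe the cells and say nothing of how many NK cells the tissue holds. A UMI of CD3D, CD3E or CD3G was present in 289 of 301 glaucoma cells (96.0% [93.1, 97.9]) and in 82 of 88 normal cells (93.2% [85.7, 97.5]). Cells with an NK receptor UMI (KLRD1, KLRF1, NCR1, KLRC1, KLRC2, KLRC3 or FCGR3) and no CD3 UMI numbered 4 (1.33% [0.363, 3.37]) and 1 (1.14%). The other 8 and 5 cells had neither. A named variable segment of the T cell receptor alpha or beta chain was detected in 33 glaucoma lymphocytes (11.0%) and 13 normal ones (14.8%), over 15 and 9 different segments of the 34 that the files name. The same segments gave a UMI in 0.513% and 0.486% of the deeper stromal cells and in 1 and 0 macrophage-gate cells. TRGC2, a constant region of the gamma chain, was found in 5 and 2 lymphocytes, and killer immunoglobulin-like receptor features in 3 and 3.

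All 5 cells of NK type held UMIs of GNLY, the granule protein granulysin, in widely different numbers. The glaucoma cells held 11, 146, 47 and 3 GNLY UMIs in totals of 1190, 2427, 1462 and 1426 UMIs, and the normal cell held 25 in 2630. All 5 had UMIs of KLRB1, the receptor CD161, and of GZMB. GZMB is a marker of the rule, and cells without a CD3 UMI had to pass on CD2, NKG7, KLRD1 and GZMB. Its presence in them is therefore not read as a result. The 2 lymphocytes richest in GNLY, with 146 UMIs (glaucoma) and 91 (normal), both lacked CD3D.

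The split of the T cells into CD4 and CD8 types could not be read from these counts. CD8A gave 4 UMIs in all glaucoma lymphocytes and 2 in all normal ones, CD8B gave 14 and 3, and CD4 gave 3 and 3. So 271 (90.0%) and 75 (85.2%) of the lymphocytes were CD3-positive cells without a UMI of any of the 3 coreceptor genes. CD8 type cells numbered 15 (4.98%) and 5 (5.68%), and CD4 type cells 3 and 2. Detection was low for some genes that lymphocytes are known to express strongly. CCL5, a chemokine of cytotoxic T cells, had 8 and 2 UMIs, and B2M, the light chain of class I molecules, had 169 and 53 UMIs in 41.2% and 44.3% of lymphocytes. B2M was also detected in only 23.4% and 21.7% of stromal cells, so its low count was not limited to lymphocytes, and the reason was not tested.

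**Figure D1:**
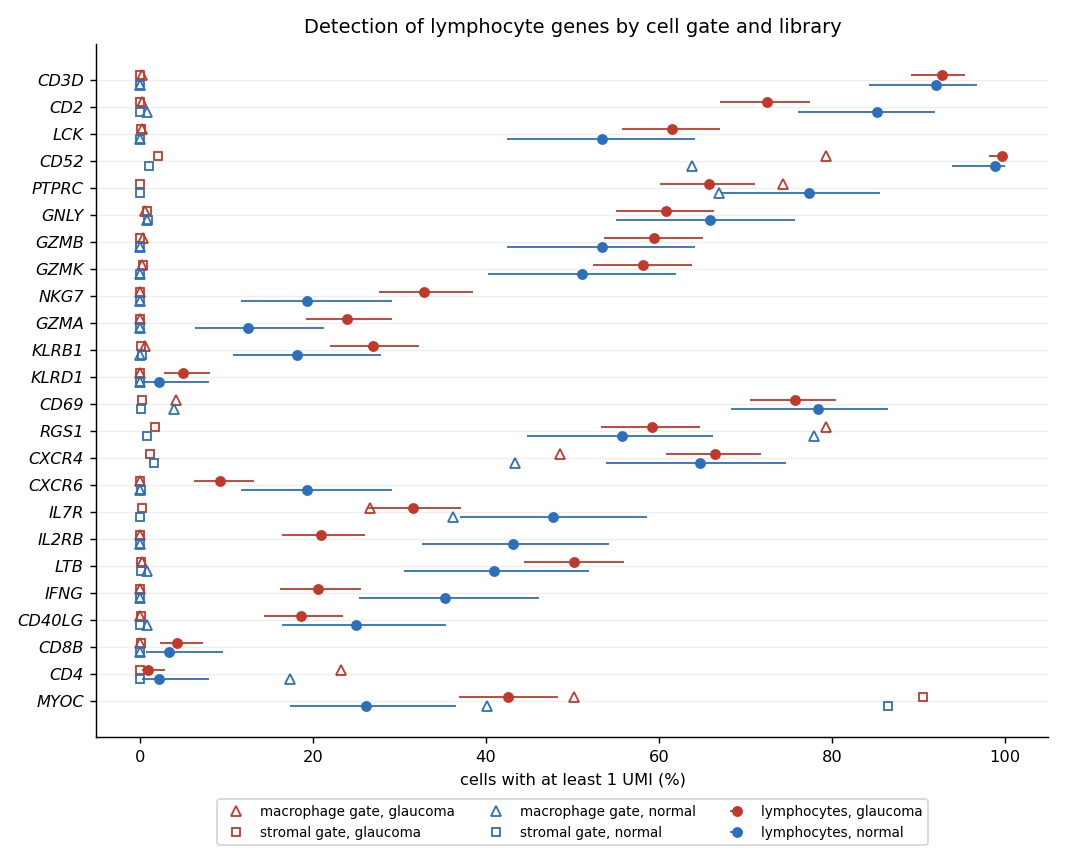
Share of cells with at least 1 UMI (x axis, percent) for 24 genes (y axis), with filled points for lymphocytes and exact 95% binomial bars, and open triangles and squares for the macrophage and stromal gates of the same library (red glaucoma, blue normal). GNLY, GZMK and CD69 stand far above both gates in each library, while CD4 and CD8B lie below 5% in the lymphocytes and MYOC reaches 42.5% and 26.1% of them. CD3D, CD2, GZMB, NKG7 and KLRD1 are markers of the rule, so their place against the gates was set by the choice of cells.

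Outside the 7 markers, the 15 genes furthest above the other kept barcodes were GNLY, CD69, GZMK, LCK, CD52, GZMM, LTB, IFNG, GZMH, SIRPG, KLRB1, CTSW, CORO1A, HCST and IL7R. Since the cells were chosen on expression, these folds describe the cells. GNLY was at 2920 CPM (UMIs of the gene per 1e+06 UMIs summed over the cells) in glaucoma lymphocytes and 3022 in normal ones, and had a UMI in 60.8% and 65.9% of the cells against 0.876% and 0.973% of stromal cells. GZMK, granzyme K, was at 1454 and 1125 CPM, and CD69 at 2272 and 1903 CPM. LCK, the kinase that starts T cell receptor signalling, was at 573 and 490 CPM, and CD52, a short surface glycoprotein of lymphocytes, had a UMI in 99.7% and 98.9% of the cells. CD52 was not particular to them, since 79.3% and 63.8% of macrophage-gate cells also had one.

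Over both libraries 1588 genes had at least 50 UMIs in the lymphocytes, and these were compared between libraries as CPM of the summed UMIs. Of them 142 (8.94%) were at least 2-fold higher and 47 (2.96%) at least 2-fold lower in the glaucoma library, 11.9% in all, and the median log2 ratio was 0.11. A gene counted by its ratio alone. Many of the higher genes had a higher level in the stromal gate than in the lymphocytes. Of 535 genes with a higher CPM in the stromal gate than in the lymphocytes of both libraries, 97 (18.1%) were at least 2-fold higher and 8 (1.50%) lower. Of 139 genes at least 4-fold above all other kept barcodes in both libraries, 5 were higher and 6 lower. The 5 were GZMA, CD3G, NKG7, LIMD2 and COTL1, and the 6 were IFNG, RASGRP1, DPP4, IL2RB, IL7R and a gene without a symbol.

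**Figure D2:**
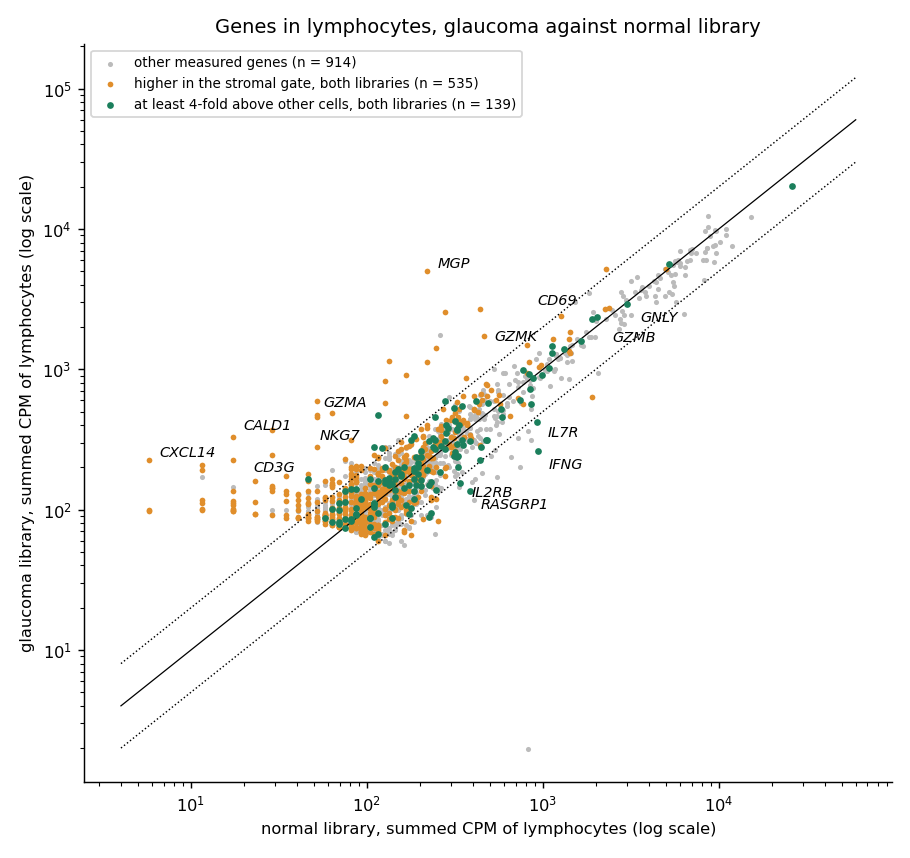
Summed CPM of 1588 genes in the lymphocytes of the normal library (x axis, log scale) and the glaucoma library (y axis, log scale), with the line of equality and dotted lines at 2-fold. Genes rich in lymphocytes (green, n = 139) lie along equality, with GZMA, NKG7 and CD3G above and IFNG, IL7R, IL2RB and RASGRP1 below, while genes higher in the stromal gate (orange, n = 535) spread above it, MGP among them.

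Most granule genes were less than 2-fold apart between the libraries, as were 1399 of all 1588 measured genes. Over all measured genes 8.94% were at least 2-fold higher and 2.96% lower. The counts of this list and of those below are to be read beside these shares. Of 15 listed genes 12 were measured, 2 were at least 2-fold higher in the glaucoma library, 10 lay between and none was lower, with a median log2 ratio of 0.38 beside 0.11 over all genes. The 2 were GZMA and NKG7. NKG7 and GZMB are among the 7 markers, so their levels describe the chosen cells, and GZMA was the 1 past 2-fold of the other 10. GZMA, granzyme A, was at 476 CPM in glaucoma and 115 CPM in normal lymphocytes, from 240 UMIs in 72 of 301 cells and 20 UMIs in 11 of 88 cells. Its log2 ratio was 2.05 [1.39, 2.78]. A single glaucoma cell held 60 of the 240 UMIs, and without the top cell of each library the ratio was 2.14. After thinning, 18.6% and 5.68% of the cells had a GZMA UMI. NKG7 was at 280 and 110 CPM, a log2 ratio of 1.35 [0.66, 2.13], in 22.3% and 11.4% of cells after thinning.

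The more abundant granule genes differed less. GNLY had a log2 ratio of -0.05 [-0.19, 0.10], GZMB of 0.21 [0.04, 0.39] and GZMK of 0.37 [0.14, 0.61]. GZMH and GZMM, further granzymes, had ratios of 0.38 [-0.12, 0.91] and 0.18 [-0.25, 0.64]. CTSW, a cathepsin of cytotoxic cells, was at 308 and 225 CPM, a ratio of 0.45 [-0.06, 1.00]. The interval reached past 0 for GNLY, GZMH, GZMM and CTSW. KLRB1 was at 454 and 242 CPM, a log2 ratio of 0.91 [0.43, 1.42], and HCST, the adaptor DAP10, was at 431 and 317 CPM.

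IFNG, interferon gamma, the main macrophage-activating cytokine of T and NK cells, was the lymphocyte gene furthest below equality. The glaucoma lymphocytes held 133 IFNG UMIs in 62 of 301 cells (20.6% [16.2, 25.6]) and the normal ones 163 in 31 of 88 cells (35.2% [25.3, 46.1]). The level was 264 CPM [221, 313] against 940 CPM [801, 1096], a log2 ratio of -1.83 [-2.17, -1.49]. No macrophage-gate or stromal-gate cell had an IFNG UMI. Where IFNG was detected, the median was 2 UMIs in a glaucoma and 4 UMIs in a normal cell, so both the share of cells and the UMIs per positive cell were lower. After thinning the shares were 14.6% and 26.1%. The ratio lay between -2.34 and -1.21 over the other ways of choosing and counting the cells.

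Of 6 measured cytokine genes IFNG was the only one at least 2-fold lower, none was higher, and the median was 0.36. LTB, lymphotoxin beta, which shapes lymphoid tissue, was at 530 CPM in 50.2% of glaucoma cells and 311 CPM in 40.9% of normal cells, a log2 ratio of 0.77 [0.34, 1.22]. TGFB1 was at 169 and 98.0 CPM and CSF1, a macrophage growth factor, at 149 and 144 CPM. TNF had 22 and 8 UMIs, below the minimum for comparison.

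Among 5 measured cytokine receptors 2 were at least 2-fold lower, 1 was higher and the median was -0.28. IL7R was at 421 CPM in 31.6% of the glaucoma lymphocytes and 923 CPM in 47.7% of the normal ones, a log2 ratio of -1.13 [-1.44, -0.83]. It was also found in 26.6% and 36.2% of macrophage-gate cells. IL2RB, the beta chain shared by the receptors for interleukin-2 and interleukin-15, was at 155 and 340 CPM, a log2 ratio of -1.14 [-1.64, -0.62]. After thinning, IL7R was detected in 22.6% and 31.8% of cells and IL2RB in 12.6% and 19.3%. IL2RG, the common gamma chain, was at 87.3 and 104 CPM and IL4R, the receptor for interleukin-4, at 71.4 and 86.5 CPM. IL27RA, a receptor chain for interleukin-27, was the higher one, at 103 and 40.4 CPM, a log2 ratio of 1.35 [0.21, 2.74] from 52 and 7 UMIs. RASGRP1, which links the T cell receptor to Ras, was in no list; it was at 137 and 386 CPM, a log2 ratio of -1.50 [-2.00, -0.99].

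Of 8 measured genes of the T cell receptor complex and its first signalling steps 1 was higher, none was lower and the median log2 ratio was 0.01. CD3D, CD3E, CD3G and CD2 are among the markers that chose the cells, so the count and the median only describe them. The other 4 differed in both directions. PTPN22, a phosphatase that damps receptor signalling, was at 139 and 248 CPM (-0.84 [-1.40, -0.25]) and FYB1, an adaptor downstream of the receptor, at 311 and 484 CPM (-0.64 [-1.03, -0.24]). ZAP70, the kinase that binds the CD3 chains, had a ratio of 0.67 and LCK of 0.23 [-0.13, 0.59]. Of the markers, CD3D was at 1585 and 1638 CPM and CD2 at 871 and 877 CPM. CD3G was at 165 and 46.1 CPM, a log2 ratio of 1.84 [0.79, 3.09] from 83 and 8 UMIs, and -0.23 in the 46 and 23 cells with at least 800 genes. CD3E, which stands beside CD3G in the same complex, was at 188 and 185 CPM.

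Of 5 measured genes of tissue residency none was 2-fold apart between the libraries, and the median was -0.21. CD69 was detected in 75.7% and 78.4% of lymphocytes against 0.211% and 0.177% of stromal cells, with a log2 ratio of 0.26 [0.08, 0.44]. RGS1, a brake on chemokine receptor signalling, was at 1301 and 1125 CPM in lymphocytes and higher, at 2117 and 1936 CPM, in macrophages. CXCR4, a chemokine receptor, was at 909 and 986 CPM and HOPX at 319 and 369 CPM. RGS2, a relative of RGS1, was lower in glaucoma lymphocytes, at a log2 ratio of -0.65 [-1.04, -0.25]. CXCR6, a receptor of resident T cells, had 34 and 20 UMIs, a log2 ratio of -0.77 [-1.61, 0.10]. ITGAE, the integrin chain CD103, was detected in 6.98% and 6.82% of lymphocytes and in 16.5% and 7.96% of the deeper stromal cells. Per UMI it was at 43.6 and 34.6 CPM in lymphocytes and 39.2 and 17.2 CPM in stroma.

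Few or no UMIs were counted for genes of recirculating and regulatory T cells. S1PR1 had 3 and 3 UMIs and KLF2 had 3 and 0, while CCR7, the receptor that guides T cells to lymph nodes, and FOXP3, the regulatory T cell factor, had none in either library. RAC2, SELPLG and BCL11B, which T cells widely express, also had no UMI in either, so a 0 here cannot be read as a gene that is off. Taken as 3 over the number of cells, a count of 0 limits the share with a UMI to 0.997% of the 301 glaucoma and 3.41% of the 88 normal cells. It sets no limit on the share that express the gene. Of 12 genes in the naive, memory and recirculation list only IL7R was measured. CTLA4, an inhibitory receptor, had 19 and 8 UMIs and PDCD1, PD-1, had 1 and 1. MKI67, a marker of dividing cells, had a UMI in 7 of 301 and 0 of 88 lymphocytes.

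None of the 6 measured genes of MHC class I was 2-fold apart, and their median log2 ratio was 0.46. MAMU-A, a classical class I gene of macaques, was at 4535 and 3426 CPM (0.40 [0.27, 0.54]) and MAMU-E at 938 and 606 CPM (0.63 [0.32, 0.95]). MAMU-B was at 855 and 807 CPM. PSMB9, a subunit of the immunoproteasome, was at 597 and 415 CPM (0.52 [0.15, 0.92]). In the stromal gate MAMU-A had a log2 ratio of -0.02 and MAMU-E of 0.42. The list median was -0.094 in cells with at least 800 genes. Class II genes were low, at a summed 99.2 and 23.1 CPM against 7755 and 8372 CPM in macrophages, and no class II gene was measured.

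Among immediate early genes, which tissue digestion can induce, those past 2-fold were lower in the glaucoma lymphocytes. Of 8 measured genes 3 were at least 2-fold lower, none was higher and the median was -0.78. KLF6 was at 171 and 548 CPM (-1.68 [-2.12, -1.25]), NFKBIA, the inhibitor of NF-kappa-B, at 323 and 721 CPM (-1.16 [-1.50, -0.81]) and NR4A1 at 71.4 and 161 CPM. NR4A2 was at 282 and 444 CPM (-0.66 [-1.07, -0.24]), FOS at 4448 and 4608 CPM and ZFP36, which promotes mRNA decay, at 1458 and 1701 CPM. KLF6 was also lower in the other cells of the glaucoma library, at 48.6 against 132 CPM in the stromal gate and 210 against 895 CPM in macrophages. DNAJB1, the 1 of 7 measured heat shock genes at least 2-fold lower (list median -0.12, none higher), was at 311 and 859 CPM in lymphocytes and 282 and 1104 CPM in stroma. DNAJB1 was at 222 and 574 CPM in macrophages, and NFKBIA at 280 and 451 CPM in stroma and 550 and 1168 CPM in macrophages. KLF6, NFKBIA and DNAJB1 were thus lower in both other gates of the glaucoma library. NR4A1 was lower in stroma, at 125 and 244 CPM, but not in macrophages, at 436 and 397 CPM. IFNG had no UMI in those gates and has no such comparison. Of other heat shock genes, HSPA8 was at 948 and 709 CPM and HSP90AB1 at 1345 and 1401 CPM.

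Actin went the other way across the tissue. ACTB had a log2 ratio of 0.98 [0.79, 1.18] in lymphocytes, 0.95 in the stromal gate and 1.20 in macrophages. TMSB4X, the actin-binding thymosin and the most abundant gene of the leukocyte cytoskeleton list, was at 20298 and 25919 CPM. None of the 11 measured genes of that list was 2-fold apart and their median was -0.06. PFN1 and CFL1, which turn over actin filaments, were at 1155 and 1459 CPM and at 1210 and 1257 CPM. Of 10 adhesion genes none was 2-fold apart either, with a median of 0.14, ITGB2 at 323 and 236 CPM and CD53 at 310 and 386 CPM. CD99, which leukocytes use to cross vessel walls, was at 671 and 444 CPM (0.59 [0.23, 0.97]).

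Lists with fewer than 5 measured genes have no median. In the NK receptor list KLRB1 and HCST were measured, and in the chemokine list CXCR4 and CXCR6, and none of them was 2-fold apart. CD40LG, the 1 measured gene of checkpoints and costimulation, was at 165 and 185 CPM. BATF, the 1 measured gene of the regulatory T cell list, was at 105 and 110 CPM. ISG20 and IRF1, which respond to interferon, were at 385 and 288 CPM and at 518 and 433 CPM. BCL2 and BAX, which guard and promote cell death, were at 139 and 213 CPM and at 155 and 179 CPM. KLRB1 was also the 1 measured gene of the list for mucosal-associated invariant, gamma delta and innate lymphoid cells, and no gene of the receptor constant chains and coreceptors reached 50 UMIs.

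**Figure D3:**
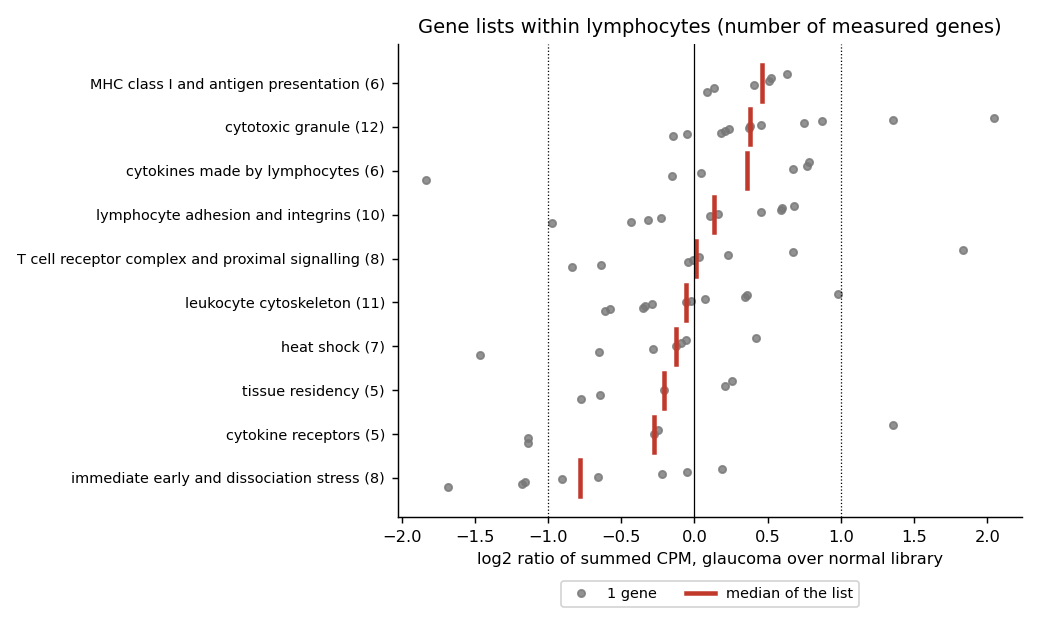
Log2 ratio of summed CPM in lymphocytes, glaucoma over normal library (x axis), for the measured genes (grey points) of the 10 lists with at least 5 measured genes (y axis, number in brackets), with red bars at list medians and dotted lines at 2-fold. The medians run from -0.78 for immediate early genes to 0.46 for MHC class I, and IFNG is the cytokine at -1.83.

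The lowest ratios of all were not those of lymphocyte genes alone. Beside IFNG, RASGRP1, KLF6 and DNAJB1, the 12 lowest were ZFP36L1 (202 and 738 CPM), TRIM22 (117 and 404 CPM), GOLGA4, ATP2A1, CENPF, MTPN, A2M and MYH11. ZFP36L1, which promotes the decay of mRNA, and TRIM22, an antiviral gene, were also lower in the glaucoma stromal gate, at 222 against 599 CPM and 104 against 223 CPM. A2M had a log2 ratio of -1.60, but -0.76 without its top cell in each library, and MYH11 one of -1.48, but -0.79. One feature named RPS2 had 1 UMI in the glaucoma and 143 UMIs in the normal lymphocytes. A second feature of that name had 826 and 271 UMIs, a log2 ratio of 0.07. Counting can split reads between such copies, so the first is uncertain, and the named genes were taken from symbols with 1 feature.

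The 12 highest ratios were all of genes with a higher CPM in stromal cells or, for RERGL, concentrated in 1 barcode. They were CXCL14, MGP, CALD1, FBLN1, CCK, CLEC11A, BGN, RERGL, SERPING1, RARRES2, CYTL1 and PMEPA1, with log2 ratios from 5.28 to 3.34. MGP, an abundant matrix protein of the meshwork, was at 4998 CPM in glaucoma and 219 CPM in normal lymphocytes, and at 39808 and 23602 CPM in the stromal gate. A single cell held 59.3% of the glaucoma RERGL UMIs. ID3, a transcriptional inhibitor, was the only one of 4 measured lymphocyte transcription factors past 2-fold, at 472 and 51.9 CPM, but stromal cells held 2052 and 1599 CPM of it. ETS1, a T cell transcription factor, was at 145 and 254 CPM (-0.81 [-1.37, -0.24]). ID2 was at 873 and 1263 CPM, a log2 ratio of -0.53 [-0.77, -0.29]. TUBB, the 1 of 3 measured cell cycle genes past 2-fold, was at 129 and 40.4 CPM from 65 and 7 UMIs. HMGB2, a chromatin protein of dividing cells, was at 250 and 144 CPM.

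Markers of other cells differed between the libraries, but not all in the same direction. The summed level of 6 meshwork markers (MYOC, CHI3L1, ANGPTL7, RARRES1, MGP and PDPN) was 7783 CPM in glaucoma and 559 CPM in normal lymphocytes, and 61774 and 46142 CPM in the stromal gate. These UMIs were concentrated. The 30 glaucoma lymphocytes with the most held 91.4% of 3923 meshwork UMIs, and the 8 normal cells with the most held 56.7% of 97. At least 10 of them were found in 20 (6.64%) and 2 (2.27%) lymphocytes, and a MYOC UMI in 42.5% and 26.1%. Contractile markers summed to 3202 and 2705 CPM, but of 7 measured 2 were at least 2-fold higher and 1 lower, with a median log2 ratio of -0.33. Stromal fibroblast markers summed to 657 and 133 CPM. HBB, a red cell gene, was detected in 15.9% and 2.27% of lymphocytes. HBA, the other measured red cell gene, differed less, at 311 and 248 CPM, a log2 ratio of 0.33 [-0.17, 0.85]. What part these UMIs have in the higher genes was not tested. Leaving out the lymphocytes with at least 2 contractile or stromal markers kept 148 and 55 cells. There 43 of 707 measured genes were higher and 18 lower, against 142 and 47 of 1588 over all lymphocytes. Fewer genes reach the minimum of UMIs in fewer cells, so these counts cannot be compared directly.

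Markers of other immune cells were near 0. The macrophage list summed to 37.7 and 5.77 CPM, with 4 and 8 of its 9 genes at 0, against 14804 and 15424 CPM in macrophages. It holds CD14, C1QB, C1QC, CD163 and CSF1R. Lymphocytes had to have fewer than 2 of these and macrophage-gate cells at least 2, so the choice of cells largely set this contrast. B cell markers summed to 5.95 and 40.4 CPM, plasma cell markers to 37.7 and 34.6, and plasmacytoid dendritic cell markers to 61.5 and 34.6. Mast cell markers were at 0 in both. Conventional dendritic cell markers summed to 7.94 and 23.1 CPM and neutrophil markers to 1.98 and 0. Outside the immune lists, Schwann cell markers summed to 107 and 219 CPM, pericyte markers to 123 and 51.9, endothelial markers to 53.6 and 17.3, and pigment cell markers to 3.97 and 0. CDH19 in the Schwann list and PECAM1 in the endothelial list were at 0 by the rule. Scrublet called 11 (3.65%) of the glaucoma lymphocytes and 0 of the normal ones doublets, and these were kept.

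**Figure D4:**
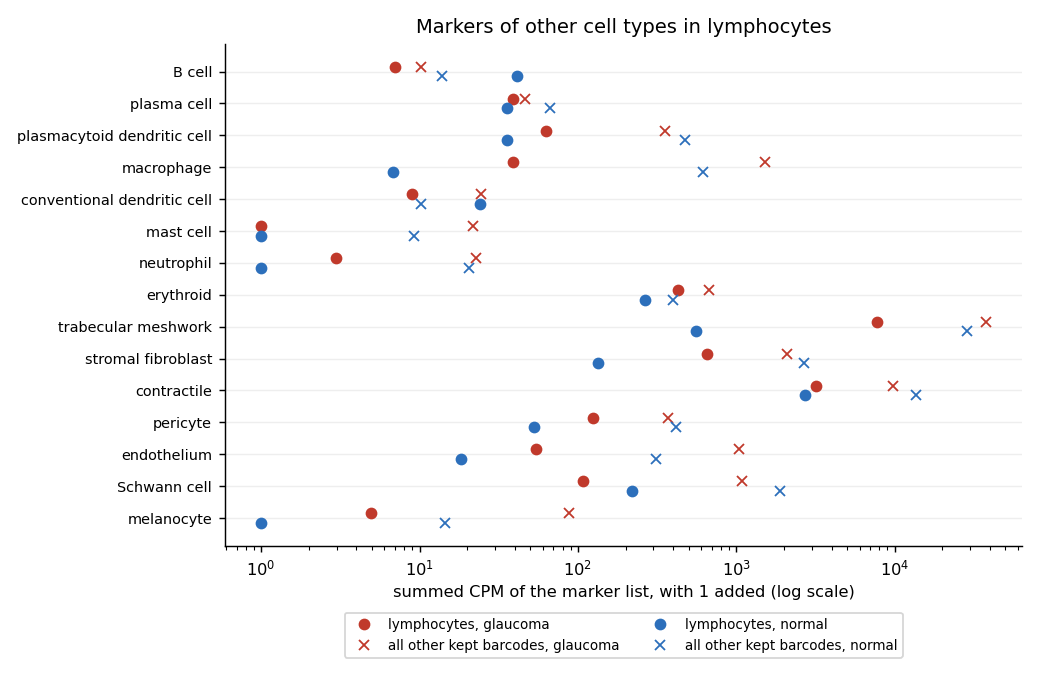
Summed CPM of 15 marker lists of other cell types (x axis, log scale, with 1 added; y axis, list) in the lymphocytes (filled) and in all other kept barcodes (crosses) of the glaucoma (red) and normal (blue) library. The widest gap between the libraries' lymphocytes among the abundant lists is that of meshwork markers, 7783 against 559 CPM. Macrophage markers stand at 37.7 and 5.77 CPM, a level that the rule limits.

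Granule genes were not spread evenly over the lymphocytes. Of GZMA, GZMB, GZMK, GNLY and NKG7, none was detected in 38 glaucoma cells, 1 in 57, 2 in 59, 3 in 72, 4 in 58 and all 5 in 17. In the normal library the counts were 10, 20, 27, 21, 9 and 1. GZMB was detected in 80.6% [73.9, 86.2] of the glaucoma lymphocytes with a GZMK UMI and in 30.2% [22.3, 39.0] of those without, and in 66.7% against 39.5% of normal ones. GZMB is 1 of the 7 markers, so the same was read among cells with both CD3D and CD2, which pass without it. There it was 77.5% against 22.0% in glaucoma, and 60.6% [42.1, 77.1] against 34.3% [19.1, 52.2] in normal cells. GZMA followed GZMK too, in 37.7% against 4.76% of glaucoma cells. In the normal library it was in 22.2% [11.2, 37.1] against 2.33% [0.0589, 12.3], from 10 cells and 1 cell. The normal intervals overlap for both GZMB and GZMA. IL7R did the reverse, at 16.6% of the cells with GZMK and 52.4% of those without among glaucoma lymphocytes, and 31.1% and 65.1% among normal ones. After thinning to 800 UMIs the IL7R shares were 10.6% [6.31, 16.5] against 36.2% [28.3, 44.7] in glaucoma, and 22.2% [10.1, 39.2] against 38.5% [25.3, 53.0] in normal cells, whose intervals overlap. GNLY did not follow GZMK, with 64.0% against 56.3% and 62.2% against 69.8%.

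Lymphocytes with GZMK and without IL7R were 146 glaucoma cells (48.5% [42.7, 54.3]) and 31 normal cells (35.2% [25.3, 46.1]). Those with IL7R and without GZMK numbered 66 (21.9%) and 28 (31.8%). Both genes were detected in 29 and 14 cells and neither in 60 and 15. The IL7R cells were deeper, with medians of 1597.5 against 1243.5 UMIs and 2200.5 against 1611 UMIs. This split was made after values of these genes had been seen, and it compares cells within 1 library, which are not replicates. The same comparison could be made in each library separately.

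The same granule genes were higher in the GZMK cells than in the IL7R cells of both libraries. Of 1058 genes, 83 (7.84%) were at least 2-fold higher in the GZMK cells and 21 (1.98%) lower in the glaucoma library, against 125 (11.8%) and 79 (7.47%) in the normal library. In both libraries 28 (2.65%) were higher and 2 (0.189%) lower. Leaving GZMK aside, 9 granule genes were measured and 7 were higher in both libraries, with list medians of 1.91 and 2.05 beside 0.09 and 0.10 over all genes. GZMA was at 963 CPM in the GZMK cells and 8.63 CPM in the IL7R cells of glaucoma, and at 296 and 15.1 CPM in those of the normal library. GZMB was at 3359 against 587 CPM and 3312 against 800 CPM, which are log2 ratios of 2.52 [2.16, 2.90] and 2.05 [1.60, 2.52]. GZMH, GZMM, CST7, CTSW and NKG7 were the others. GZMB and NKG7 are among the markers that chose the cells, so their ratios, the count of 7 and the medians partly describe that choice. GZMA, GZMH, GZMM, CST7 and CTSW are not among the markers.

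CCL4L1, a chemokine that draws T cells and monocytes, went with the GZMK cells, at 2294 against 475 CPM (2.27 [1.87, 2.70]) and 1314 against 332 CPM (1.98 [1.28, 2.75]). Its UMIs were concentrated. Over all lymphocytes the top cell held 133 of 698 UMIs in glaucoma and 67 of 229 in the normal library. CD40LG, the CD40 ligand through which helper T cells act on B cells and macrophages, went with the IL7R cells. It was at 12.7 CPM in the GZMK cells and 354 CPM in the IL7R cells of glaucoma, a log2 ratio of -4.80 [-7.13, -3.15], and at 37.0 and 257 CPM in those of the normal library, -2.79 [-5.95, -0.72]. The normal value rests on 2 and 17 UMIs. RPL22L1, a ribosomal protein gene, was the other gene lower in both. GNLY was not among the 7 granule genes higher in both, at 0.12 [-0.08, 0.32] and -0.77 [-1.12, -0.43]. It was not the only measured granule gene outside those 7. IFNG was not 2-fold apart, at 0.10 [-0.58, 0.82] and 0.59 [-0.01, 1.20]. Some meshwork genes were higher in the GZMK cells as well, with MYOC at 2.92 and 1.58 and MGP at 3.33 and 1.07, and their part in the other differences was not tested.

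**Figure D5:**
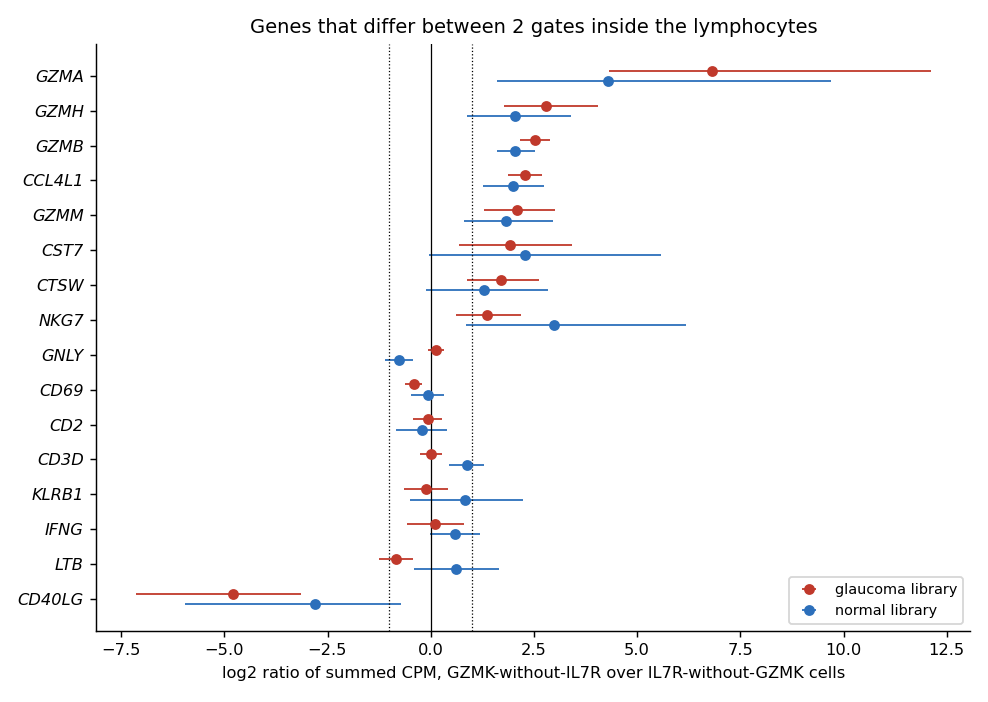
Log2 ratio of summed CPM of lymphocytes with GZMK and no IL7R over those with IL7R and no GZMK (x axis) for 16 genes (y axis), in the glaucoma (red) and normal (blue) library, with exact 95% counting intervals and dotted lines at 2-fold. The granzymes, CCL4L1 and NKG7 lie to the right and CD40LG to the left in both libraries, while GNLY, CD69, CD2 and IFNG stay inside 2-fold.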

How the data were processed

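The deposited values were UMI counts per gene and barcode, whole numbers with no normalization, in 1 matrix per library of 24037 features. The authors made the counts with Cell Ranger, version 4.0 with Seurat 3.0 per the submitters' processing notes and version 6.0.0 per the file headers. The genome build and the rule that chose the barcodes are not given in the sources used here. No cell annotation was used, and 7584 features had no symbol. Python 3.11.15 with numpy 2.4.6, scipy 1.17.1, pandas 2.3.3 and scanpy 1.11.5 (Scrublet) was used, with seed 1.

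UMIs were summed over the lymphocytes of a library and scaled to 1e+06. Ratio intervals are exact conditional binomial, levels exact Poisson and shares Clopper-Pearson. The ratio calculation was checked on simulated data. Doublet calls were only an alternative. The members and the 22 gene lists were chosen with earlier results of these data known. Genes named were drawn from those the rule picks, not all of which are printed: the 7 markers, the 4 most abundant and every 2-fold member of a list, the 12 highest and 12 lowest ratios, and the 15 largest folds over other barcodes. Genes outside this rule (the split by GZMK and IL7R and its genes, CCL4L1, PTPN22, ZAP70, RAC2, SELPLG, BCL11B, CCL5, B2M, TNF, MKI67, DPP4, LIMD2, COTL1, RPS2 and low-count subset genes) were chosen after their values were seen.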

Additional observations from a re-analysis of the deposited data

How the results depend on the processing

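No paired analysis was possible because each group has 1 library, and there was no replicate to leave out. Of 198 alternative values for shares, counts of genes and list medians, 169 stayed within a set band. It was the counting interval for shares and a change of at most 1.5 times for counts. For list medians it ran from the median of the genes' lower bounds to that of their upper bounds, as -1.18 to 0.63 for cytokine receptors. That band has the width of a single gene's interval and not of a median's error, so it is lenient. Another 28 moved further and 1 was reversed. Of 299 for single genes the numbers were 265, 32 and 2. Reversed means a change of sign where the main interval excluded 0. Other changes of sign were judged by that interval alone, as for the tissue residency median, which went from -0.21 to as high as 0.17. With at least 800 genes per barcode the log2 ratio of the lymphocyte share was 0.36, CD3-positive cells were 91.3%, CD8 type 8.70% and cells with neither receptor 6.52% of glaucoma lymphocytes, 90 of 543 measured genes were higher, and the medians were -0.62 for the cytoskeleton list and -0.094 for MHC class I. There CD3G was at -0.23 and CD69 at -0.56, both reversed; the causes were not tested. With at least 3 markers 100% of the normal cells were CD3 positive, with 0% NK type and 0% remaining. After thinning to 800 UMIs, which lowers detection by construction, CD3-positive cells were 81.4% and 84.1%, remaining cells 17.3% and 15.9%, glaucoma CD8 type 2.66%, glaucoma CD4 type 0%, normal NK type 0%, and 61 of 726 measured genes were higher and 15 lower. Counts of higher and lower genes were 58 and 23 of 770 with at least 100 UMIs, 1065 and 1806 with no minimum, and 43 and 18 of 707 without lymphocytes holding contractile or stromal markers. They were 86 and 29 of 1265 without lymphocytes over 3000 UMIs, and 87 and 29 of 1260 without those holding at least 10 meshwork, stromal or contractile UMIs, both chosen after seeing the data. Under all alternatives run, GZMA stayed between 1.93 and 3.05, NKG7 between 1.19 and 1.99, IL7R between -2.59 and -0.82, IL2RB between -1.75 and -0.77 and RASGRP1 between -1.77 and -1.33. The 88 normal cells limit what can be seen. Taken as 3 over the number of cells, a count of 0 there limits the share of cells with a UMI to 3.41%, not the share that express the gene.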
